A study of Mus musculus with 4 samples.

Results

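The respiratory chain genes of cochlear neurons were described by complex and by genome of origin. Members were chosen by gene symbol in the 4 count tables: all symbols that begin with Nduf, Uqcr, Atp5 or Cox4 to Cox8, the succinate dehydrogenase genes Sdha, Sdhb, Sdhc and Sdhd, and the protein-coding mitochondrial genes. The rule found 105 of 18143 genes and used no measured value. Of these, 92 are nuclear genes. They comprise 75 subunit genes (36 of complex I, 4 of complex II, 8 of complex III, 12 of complex IV and 15 of complex V), 8 tissue isoforms of complex IV subunits and 9 assembly factors or associated proteins. The other 13 are encoded by the mitochondrial genome, 7 in complex I, 1 in complex III, 3 in complex IV and 2 in complex V. Ndufa4 and its paralogue Ndufa4l2 were placed in complex IV, where the protein is now known to sit, and Atp5s and Atp5sl among the associated proteins.

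Single spiral ganglion neurons were profiled from 4 wild-type male CBA/CaJ mice aged 9 weeks, each captured as a library of its own. Per the labels, dissected tissue was pooled within each mouse, so a mouse is 1 sample and the replicate throughout. The dissected tissue also held spiral limbus, inner sulcus and some organ of Corti, and was digested with collagenase IV and papain before capture. The authors' deposited annotation places 6713 cells in type II (95 cells), putative neurons (505), type IA (2384), type IB (1625) and type IC (2104). No treatment or mutant was studied, and the comparisons are between these populations of the same untreated mice.

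Each complex of the chain has its own task. Complex I (NADH dehydrogenase) and complex II (succinate dehydrogenase) feed electrons to ubiquinone, complex III passes them to cytochrome c, and complex IV (cytochrome c oxidase) passes them to oxygen. Complex V (ATP synthase) uses the proton gradient that results. The mitochondrial genome encodes hydrophobic core subunits of complexes I, III, IV and V and none of complex II. Its messengers are cut from long transcripts that span many genes, whereas nuclear subunit genes are scattered over the chromosomes. Spiral ganglion neurons carry sound information to the brainstem: myelinated type I neurons contact inner hair cells, and the few unmyelinated type II neurons contact outer hair cells.

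The count for a gene is a number of unique molecular identifiers (UMIs), each 1 captured molecule tagged near its 3′ end, so levels were not scaled to gene length. Levels are given in CPM, counts scaled to the same total of UMIs in each sum, from the sum of all cells of a population in a mouse. Libraries held 15151343 to 27309045 UMIs in 1238 to 2232 cells, and the type II sums, with 15 to 34 cells and 131668 to 546679 UMIs, were the shallowest. Barcodes seen in more than 1 library numbered 26 of 6687. Markers of type II neurons (7 genes) summed to 1796 ± 541 CPM in type II and to 241 to 257 CPM in the type I subtypes (means over 4 mice). Markers of type I neurons (8 genes) summed to 3421 ± 1971 CPM in type II, from 1704 to 6221 CPM by mouse. In putative neurons they summed to 7017 ± 1618 CPM, and in IA, IB and IC to 12843, 5423 and 6530 CPM. Markers of satellite glia and Schwann cells (17 genes, none at 0) summed to 13628 ± 2671 CPM in type II and 13436 ± 672 CPM in putative neurons, and to 6650 to 7247 CPM in type I. The 8 hair cell markers summed to 2974 ± 759 CPM in type II, 2730 ± 347 CPM in putative neurons and 3075 to 3942 CPM in type I, and 4 of them had no UMI in type II, namely Myo7a, Pou4f3, Gfi1 and Ocm. The type II sum thus came from Otof, Pvalb, Slc17a8 and Myo6 alone. These sums were not split by gene and cannot be read as an amount of hair cell RNA. The 12 neuron markers summed to 9787 ± 1618 CPM in type II and 9671 ± 1234 CPM in putative neurons, against 11544 to 12651 CPM in type I. Markers of fibroblasts and bone (8 genes) summed to 380 ± 107 CPM in type II and 595 ± 232 CPM in putative neurons, against 221 to 239 CPM in type I, and cochlear supporting cell markers (8 genes) to 93.8 ± 37.7 and 183 ± 2.77 CPM, against 67.9 to 68.6 CPM. Endothelium and pericyte markers (6 genes) summed to 50.6 ± 27.8 CPM in type II and 101 ± 44.2 CPM in putative neurons, against 49.3 to 52.4 CPM in type I.

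The 13 mitochondrial genes supplied 6.52% ± 1.67 of all UMIs in type II and 9.92% ± 1.40 in putative neurons, against 10.6% ± 0.775 in type IA, 9.22% ± 0.411 in IB and 7.52% ± 0.268 in IC (mean ± SD, n = 4 mice). Type IA held 10.6, 9.58, 10.5 and 11.5% in mice 1 to 4, type IB 9.56, 8.64, 9.24 and 9.44%, and type IC 7.48, 7.16, 7.68 and 7.76%. The values of IA, IB and IC did not overlap, and the order IA over IB over IC held in 4 of 4 mice. These are shares of summed UMIs. The step was much wider among cells with high mitochondrial shares than among cells with low ones, as given by tertile below. Type II varied most, at 8.04, 6.19, 7.54 and 4.31% in mice 1 to 4, with mouse 4 lowest. It lay below every type I subtype of its mouse in 3 of 4 mice.

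The 75 nuclear subunit genes behaved otherwise. They supplied 5.79% ± 0.719 of UMIs in type II and 6.77% ± 0.479 in putative neurons, against 7.93% ± 0.345 in type IA, 8.37% ± 0.165 in IB and 8.34% ± 0.167 in IC. Type II stood at 6.84, 5.46, 5.62 and 5.24% in mice 1 to 4 and putative neurons at 7.20, 6.98, 6.81 and 6.09%. Both lay below all 3 type I subtypes in 4 of 4 mice, and in none of the 4 mice did type I fall from IA over IB to IC. In bulk sums like these, fewer molecules per cell and a larger pool of other RNA cannot be told apart.

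**Figure D1:**
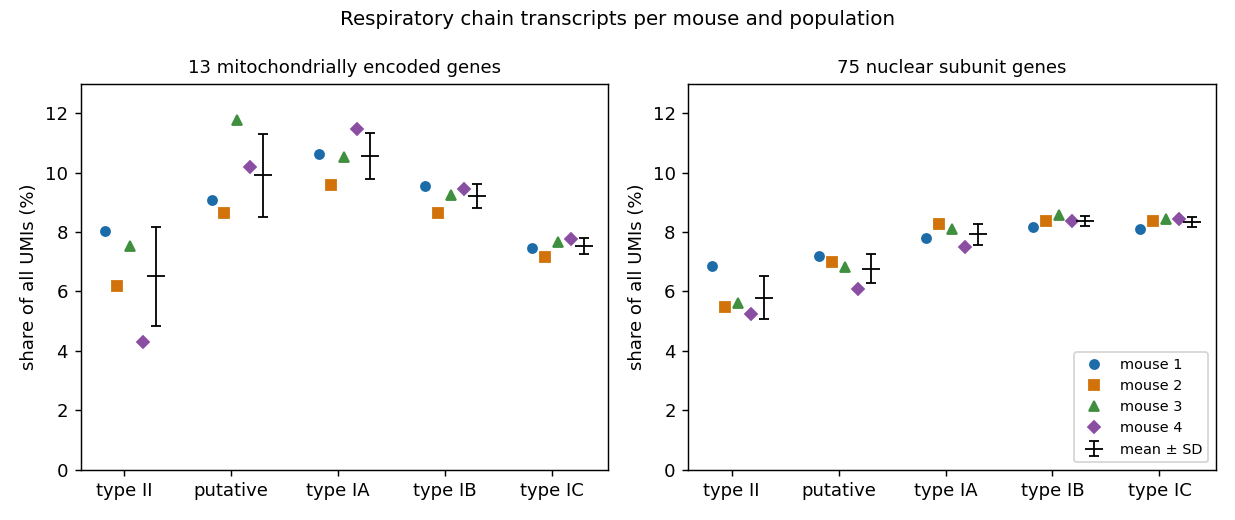
Share of all UMIs (percent, y axis) from the 13 mitochondrially encoded genes (left) and the 75 nuclear subunit genes (right) in type II, putative, type IA, type IB and type IC sums. Each symbol is a mouse and the black bar the mean ± SD of 4 mice. Mitochondrial shares step down from 10.6% in type IA over 9.22% in IB to 7.52% in IC, while nuclear shares are 7.93% to 8.37% in type I, 6.77% in putative neurons and 5.79% in type II.

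Nuclear subunit transcripts were lower in type II neurons than in type I in every complex. Of the 75 genes, 69 were called lower and 0 higher in the comparison of type II with the mean of IA, IB and IC, where 23.4% of the 13005 genes tested were called, 11.5% lower and 11.9% higher (edgeR quasi-likelihood test, Benjamini-Hochberg adjusted p under 0.05). At an unadjusted p under 0.05 there were also 69 and 0, and DESeq2 called 69 and 2. The median log2 difference was -0.52, against -0.05 over all genes tested. For 45 of the 75 genes, the 4 type II values did not overlap the 12 type I values. The same count was not made over all genes tested, so how unusual it is cannot be told.

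Complex I had 32 of 36 nuclear subunit genes lower in type II, with a median of -0.53. Ndufs1, the largest core subunit, which carries iron-sulphur clusters on the electron path, had 128, 91.1, 99.9 and 40.9 CPM in type II mice 1 to 4, against 186, 179, 188 and 178 in IA, 180.1, 178, 175 and 162 in IB and 169, 165, 176 and 166 in IC. All 4 type II values lay below all type I values, with mouse 4 lowest (log2 difference -0.88 ± 0.14, SE, adjusted p = 1.91e-06). Ndufb6, an accessory subunit of the membrane arm, had 381 ± 73.1 CPM in type II and 642, 682 and 650.2 CPM in IA, IB and IC (-0.82 ± 0.09). At the weak end of the called genes stood the accessory subunits Ndufa1 (-0.27 ± 0.09) and Ndufa7 (-0.23 ± 0.08), whose groups overlapped. Neither was called without mouse 2 (adjusted p = 0.0514 for Ndufa1 and 0.0701 for Ndufa7) or without mouse 3 (0.129 and 0.0714), and Ndufa7 also not without mouse 4 (0.111). The accessory subunits that did not pass the test were Ndufa2 (-0.17), Ndufa8 (0.06), Ndufb7 (-0.08) and Ndufv3 (0.15).

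All 4 genes of complex II, the enzyme shared with the citric acid cycle, were lower in type II, and none of its subunits is mitochondrially encoded. Sdhd, a membrane anchor, had 129.9, 129, 99.9 and 105 CPM in type II mice 1 to 4, against 175, 172 and 156 CPM on average in IA, IB and IC, and its groups did not overlap (-0.61 ± 0.12, adjusted p = 0.000123). Sdhc, the other anchor (-0.47 ± 0.14), the flavoprotein gene Sdha (-0.40 ± 0.09) and the iron-sulphur protein gene Sdhb (-0.36 ± 0.10) overlapped type I. Sdhb was not called without mouse 3 (-0.20, adjusted p = 0.240), nor was Sdhc (-0.43, adjusted p = 0.0738).

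In complex III, 8 of 8 nuclear genes were lower in type II. Uqcrc1, a core protein on the matrix side, had 432, 327, 328 and 341 CPM in type II mice 1 to 4, against 580.5, 596 and 574 CPM in IA, IB and IC. Its groups did not overlap (-0.74 ± 0.09, adjusted p = 4.71e-09). Uqcr10 (-0.60 ± 0.09) and Uqcrfs1, the Rieske iron-sulphur protein (-0.37 ± 0.09), were also without overlap. Uqcr11 moved least (-0.22 ± 0.08) and was not called without mouse 2 (adjusted p = 0.142) or without mouse 3 (0.146).

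Complex IV held Cox5a, the nuclear subunit with the largest difference in this comparison. Of its 12 genes 11 were lower in type II, with a median of -0.61. Cox5a, a matrix-side subunit, had 1866, 965, 1119 and 1109 CPM in type II mice 1 to 4, against 2942, 3112, 3048 and 2639.7 in IA, 2812, 3024, 2961 and 2722 in IB and 2949, 3153, 3065 and 2921 in IC. All type II values lay below all type I values, and mouse 1 was the highest of the 4 type II sums. The ratio of type II to type I was 0.423 (-1.24 ± 0.10 on the log2 scale, adjusted p = 6.39e-14). Cox7a2l, a relative of Cox7a2 known for joining complexes III and IV into supercomplexes, did not pass the test, with 448 ± 73.6 CPM in type II and 374, 413 and 421 CPM in IA, IB and IC (0.13 ± 0.09).

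Complex V had 14 of 15 nuclear genes lower in type II. Atp5j, a stalk subunit, had 1381, 1215, 1204 and 1022 CPM in type II mice 1 to 4, against 1957, 1883 and 1924 CPM in IA, IB and IC, with no overlap (-0.72 ± 0.09, adjusted p = 1.84e-09). The c-ring subunit, through which protons turn the rotor, is encoded by Atp5g1, Atp5g2 and Atp5g3, which make the same mature protein. Atp5g1 was lower (-0.78 ± 0.10), Atp5g3 too (-0.60 ± 0.10), and Atp5g2 did not pass the test (-0.06 ± 0.08). The share of Atp5g2 among the UMIs of the 3 genes was 15.2, 25.4, 21.1 and 25.8% in type II mice 1 to 4, and 13.2% ± 0.190 in IA, 13.9% ± 0.580 in IB and 14.8% ± 0.540 in IC. The F1 subunit gene Atp5d (-0.36 ± 0.08) and the stalk subunit gene Atp5h (-0.22 ± 0.08) lay at the weak end. Atp5h was not called without mouse 2 (adjusted p = 0.116), mouse 3 (0.185) or mouse 4 (0.0536).

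Mitochondrially encoded transcripts were lower in type II as well, though with overlap. Of the 13 genes, 11 were called lower and 0 higher, also at an unadjusted p under 0.05 and with DESeq2, and the median log2 difference was -0.55. mt-Nd3, a complex I core subunit, had 360.4, 235, 320.2 and 195 CPM in type II mice 1 to 4, against 658, 435, 508 and 631 in IA, 594, 399, 468 and 505 in IB and 471, 331, 396 and 419 in IC (-0.80 ± 0.10, adjusted p = 1.40e-08). Within each mouse type II was below every type I subtype, but the groups overlapped between mice. The other complex I genes called were mt-Nd1 (-0.68 ± 0.12), mt-Nd4l (-0.65 ± 0.11), mt-Nd4 (-0.58 ± 0.10), mt-Nd2 (-0.55 ± 0.10) and mt-Nd5 (-0.36 ± 0.09). In complex III mt-Cytb, cytochrome b, differed by -0.57 ± 0.11. The mitochondrially encoded core subunits of complex IV differed by -0.41 ± 0.10 (mt-Co1), -0.47 ± 0.10 (mt-Co2) and -0.58 ± 0.12 (mt-Co3). mt-Atp6, the proton channel subunit of complex V, differed by -0.51 ± 0.12. mt-Nd6 (-0.21 ± 0.20, 48 UMIs in type II) and mt-Atp8 (-0.16 ± 0.14, 109 UMIs) did not pass the test.

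Most nuclear subunits were also called lower in type II cells low in a glial marker, and fewer mitochondrial genes were. Leaving out cells with 3 or more Fabp7 UMIs, a satellite glia marker, removed 38 of 95 type II cells (and the type II sum of mouse 4, left with too few cells) but 11 to 19 cells of each type I subtype. Of nuclear subunits 60 were then called lower (median -0.41), and of mitochondrial genes 5 (median -0.27). Calls named above that were lost were those of Ndufa1 (adjusted p = 0.427), Ndufa7 (0.115), Sdhb (0.215), Sdhc (0.0672), Uqcr11 (0.297) and Atp5h (0.0913), and of the mitochondrial genes those of mt-Nd2 (0.0792), mt-Nd5 (0.400), mt-Cytb (0.0594), mt-Co1 (0.185), mt-Co2 (0.267) and mt-Atp6 (0.229). With mouse 4 left out and all other cells kept, 11 mitochondrial genes were lower (median -0.39). Leaving out the 37 type II cells with no UMI of Prph, the type II marker peripherin, gave 71 nuclear (median -0.85) and 11 mitochondrial genes lower (median -1.21). The part of glial RNA in the result was not tested further.

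**Figure D2:**
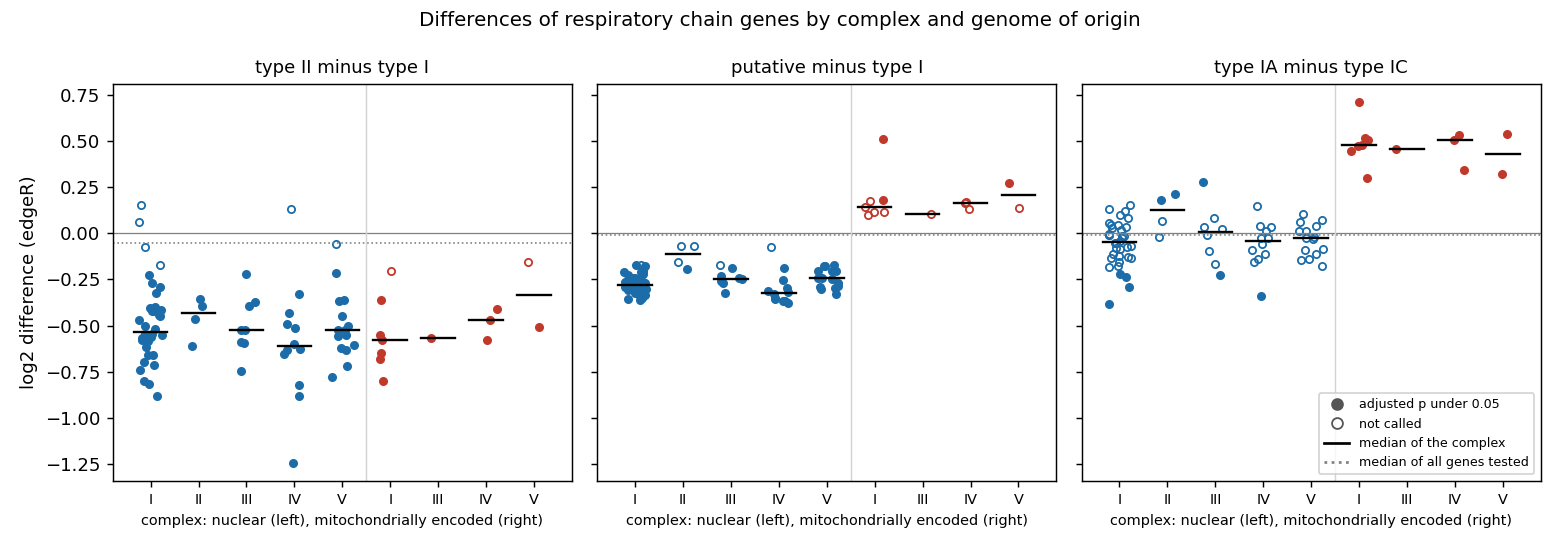
Log2 differences (edgeR, y axis) of nuclear and mitochondrially encoded respiratory chain genes by complex for type II minus type I, putative minus type I, and type IA minus type IC. Each point is a gene, filled where the adjusted p was under 0.05; black lines are medians of a complex and the dotted line the median of all genes tested. Type II lies below 0 for genes of both genomes, putative neurons for nuclear genes, and type IA above 0 for mitochondrial genes.

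Among the 9 assembly and associated genes, 3 were lower in type II and 0 higher (4 and 0 at an unadjusted p under 0.05, 2 and 0 with DESeq2), where 11.5% of all genes were called lower. Ndufaf2, a complex I assembly factor, had 82.3, 68.4, 51.2 and 68.2 CPM in type II mice 1 to 4, against 127, 132 and 152 CPM in IA, IB and IC, with no overlap (-1.03 ± 0.14, adjusted p = 1.03e-07). Atp5sl, known in human cells to take part in complex I assembly, was also lower (-0.76 ± 0.19). Ndufaf3, which acts early in complex I assembly, was called at -0.39 ± 0.13 and not without mouse 1 (adjusted p = 0.0925), mouse 2 (0.0560) or mouse 3 (0.136), nor without cells of 3 or more Fabp7 UMIs (0.0819) or with DESeq2 (0.0667). With every cell thinned to 4215 UMIs, neither Atp5sl (adjusted p = 0.475) nor Ndufaf3 (0.346) was called.

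The most graded nuclear gene was a tissue isoform. Cox8b encodes the form of the smallest complex IV subunit that is known from heart, skeletal muscle and brown fat, and Cox8a encodes the form found in most tissues. Their coding sequences are shown because the results turn on the isoform that was counted. Capitals mark bases identical in an alignment of the coding sequences, 111 of 207 aligned bases (53.6%). Both are from GENCODE transcripts on GRCm38, Cox8b at chr7:140898945-140900446, minus strand, and Cox8a at chr19:7215153-7217616, minus strand, and the letters are the coding part of the exons.
Cox8b: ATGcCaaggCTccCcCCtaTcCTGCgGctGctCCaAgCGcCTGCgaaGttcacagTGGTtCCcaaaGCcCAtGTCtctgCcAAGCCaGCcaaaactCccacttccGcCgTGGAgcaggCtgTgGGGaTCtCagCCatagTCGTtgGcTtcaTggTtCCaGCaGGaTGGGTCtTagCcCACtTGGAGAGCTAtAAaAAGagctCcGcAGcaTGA
Cox8a: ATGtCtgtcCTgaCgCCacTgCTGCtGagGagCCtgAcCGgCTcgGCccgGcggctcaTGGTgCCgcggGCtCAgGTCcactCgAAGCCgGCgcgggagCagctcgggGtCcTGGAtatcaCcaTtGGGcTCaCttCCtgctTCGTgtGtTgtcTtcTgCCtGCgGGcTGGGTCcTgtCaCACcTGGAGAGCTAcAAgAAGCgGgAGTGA

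Cox8b stood at 134, 45.6, 48.7 and 63.6 CPM in type II mice 1 to 4 and at 404, 148, 282 and 282 CPM in putative neurons. In type IA it had 553, 355, 529 and 583 CPM, in IB 399, 251, 354 and 420.0 CPM and in IC 285, 170.1, 273 and 334 CPM. The order IA over IB over IC held in 4 of 4 mice, type II lay below all type I values, and mouse 2 was the lowest of each population. Type II differed from type I by -2.23 ± 0.16 on the log2 scale (adjusted p = 3.18e-16), a ratio of 0.214. Type IA differed from IC by 0.96 ± 0.07 (adjusted p = 1.72e-15), IA from IB by 0.51 ± 0.07 and IB from IC by 0.45 ± 0.08. Without the mouse as a block, IA minus IB (adjusted p = 0.183) and IB minus IC (0.362) were not called, nor was the difference of putative neurons (0.156).

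Cox8a had the reverse order across type I, without passing the test there. Its level was 2218 CPM in type II and 2343 CPM in putative neurons, against 2523 in IA, 2695 in IB and 2809.7 in IC, with IA under IB under IC in 4 of 4 mice. The difference of IA from IC did not pass the test (-0.14 ± 0.08), and that of type II from type I did (-0.33 ± 0.08). Cox8b supplied 5.78, 1.98, 2.22 and 2.69% of the UMIs of the pair in type II mice 1 to 4 and 10.7% ± 4.19 in putative neurons. In type I the share was 16.7% ± 3.61 in IA, 11.7% ± 2.43 in IB and 8.64% ± 2.20 in IC.

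**Figure D3:**
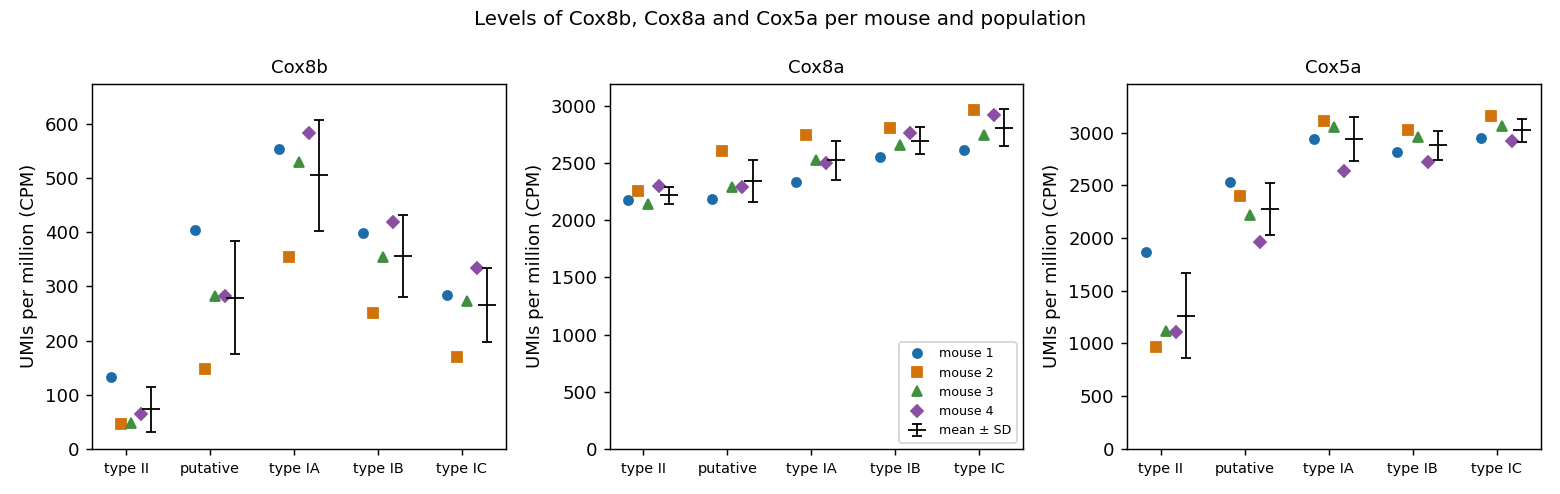
Levels of Cox8b, Cox8a and Cox5a in CPM (y axis) in type II, putative, type IA, type IB and type IC sums, 1 symbol per mouse with the mean ± SD. Cox8b averages 72.8 CPM in type II and steps down across type I from 505 over 356 to 265 CPM, and Cox5a averages 1265 CPM in type II against 2880 to 3022 CPM in type I.

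Other tissue isoforms were rare beside their partner genes. In type II, putative neurons, IA, IB and IC the partners averaged 2455, 2674, 2974, 3323 and 3256 CPM for Cox4i1 and 1578, 1745, 2079, 2263 and 2193 CPM for Cox6b1. Cox6a1 averaged 1677, 1823, 2126, 2375 and 2292 CPM and Cox7b 969.9, 1344, 1799, 1761 and 1640.5 CPM. The mean of each of these 4 partners was lowest in type II. Cox7a1, the heart and muscle form of Cox7a2, had 35.4 ± 15.5 CPM in type II (51 UMIs) and 42.8 ± 6.40 in putative neurons, against 15.1, 19.0 and 18.4 CPM in IA, IB and IC, where Cox7a2 had 2344 to 2436 CPM. It was higher in type II (1.12 ± 0.25), with overlap, and not called without mouse 1 (0.58, adjusted p = 0.240) or with thinned cells (0.653). Cox6b2, the testis form of Cox6b1, had 37.3 ± 14.1 CPM in type II (42 UMIs) and 31.4 ± 4.97 in putative neurons, against 13.9 to 16.9 CPM in type I (1.08 ± 0.29 for type II), and was not called there without mouse 3 (0.85, adjusted p = 0.136). Without cells of 3 or more Fabp7 UMIs neither call in type II held (adjusted p = 0.0532 for Cox7a1 and 0.602 for Cox6b2). Cox4i2, the lung form of Cox4i1, had 10 UMIs in type II and was not called (1.11 ± 0.56). It had 7.29 CPM in putative neurons against 3.28 to 4.00 CPM in type I. Ndufa4l2 had 4 UMIs in type II, all in mouse 2, and 60, 29 and 63 in IA, IB and IC. Cox6a2, Cox7b2 and Cox8c, with 31, 15 and 6 UMIs in all cells, did not pass the low-count filter, so 5 of the 8 isoforms were tested.

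Type IA and type IC, the ends of the type I order above, differed in mitochondrial transcripts and little in nuclear ones. All 13 mitochondrial genes were called higher in IA and 0 lower, at an unadjusted p under 0.05 and with DESeq2 as well, where 16.3% of all genes tested were called higher. Their median log2 difference was 0.48, against -0.01 over all genes. Without the mouse as a block 9 of the 13 were called, and mt-Nd4l (adjusted p = 0.0621), mt-Co1 (0.0828), mt-Atp8 (0.127) and mt-Nd6 (0.322) were not. Of the 75 nuclear subunit genes, 3 were called higher and 6 lower (5 and 13 at an unadjusted p under 0.05, 4 and 18 with DESeq2), where 16.0% of all genes were called lower, and the median was -0.02.

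The largest mitochondrial difference was in mt-Nd1, which holds part of the ubiquinone site of complex I. It had 12912, 11117, 12583 and 13106 CPM in IA mice 1 to 4, 10618, 9655, 10181 and 10028 in IB and 7473, 7468, 8026 and 7738 in IC, and the 3 groups did not overlap (0.71 ± 0.13 for IA minus IC, adjusted p = 1.91e-05). The other complex I genes differed by 0.52 (mt-Nd2), 0.51 (mt-Nd4l), 0.48 (mt-Nd3), 0.47 (mt-Nd4), 0.44 (mt-Nd5) and 0.30 (mt-Nd6). mt-Co3, the most abundant member, had 27360.3, 26701, 28525 and 32501 CPM in IA and 19289, 19973, 21002 and 21866 in IC (0.50 ± 0.13). Every IA value exceeded every IC value. mt-Atp6 differed by 0.54 ± 0.14, mt-Co2 by 0.53 ± 0.12, mt-Cytb by 0.45 ± 0.13, mt-Co1 by 0.34 ± 0.12 and mt-Atp8 by 0.32 ± 0.05. For 9 of the 13 genes IA and IC did not overlap, and in 4 of 4 mice each of the 13 fell from IA over IB to IC. Of the 75 nuclear subunit genes, 19 had no overlap between IA and IC. Such counts were not made over all genes tested, so how unusual they are cannot be told. mt-Co1 was not called without mouse 2 (adjusted p = 0.0740) or mouse 3 (0.134).

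Between neighbours fewer genes passed. For IA minus IB the median of the 13 genes was 0.18 and mt-Atp8 alone was called (0.16 ± 0.05), against 7.4% of all genes called higher and none of the 13 with DESeq2. It was not called without mouse 2 (adjusted p = 0.153), mouse 3 (0.0861) or mouse 4 (0.0996). For IB minus IC the median was 0.29 and 6 genes were called higher, against 6.37% of all genes. These were mt-Nd2 (0.39 ± 0.09), mt-Nd5 (0.29 ± 0.07), mt-Nd3 (0.29 ± 0.07), mt-Nd1 (0.41 ± 0.13), mt-Nd4l (0.28 ± 0.09) and mt-Atp8 (0.16 ± 0.06). The calls of mt-Nd1 (adjusted p = 0.0536, 0.110 and 0.148) and mt-Nd4l (0.0759, 0.136 and 0.136) were lost without mouse 1, 2 or 3. That of mt-Atp8 was lost without mouse 1 (0.297), mouse 3 (0.275) or mouse 4 (0.0657). Without mouse 1 or without mouse 3 the count was 3, with DESeq2 it was 3, and without the mouse as a block it was 0.

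The cells with most mitochondrial RNA were unevenly spread over the populations. Leaving out cells over 15% mitochondrial UMIs, a limit chosen after the data were seen, removed 25.2% of IA cells, 15.6% of IB, 9.93% of IC, 8.42% of type II and 28.7% of putative neurons. The limit acts on the measure itself, so a smaller difference follows from it in part. In the cells left, 10 of 13 genes were called higher in IA than in IC, with a median of 0.28, and mt-Cytb (adjusted p = 0.0611), mt-Nd6 (0.0839) and mt-Co1 (0.224) were not. With nuclear genes alone as the total the count stayed at 13, and with every cell thinned to 4215 UMIs too.

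Of the 9 nuclear subunit genes called between IA and IC, 6 were lower in IA and 3 higher. Ndufa8, a complex I accessory subunit of the intermembrane side, had 379, 417, 383 and 316 CPM in IA mice 1 to 4, against 468, 527, 516 and 467 in IC, with no overlap (-0.39 ± 0.06, adjusted p = 2.43e-06). Its level in IB lay between in 4 of 4 mice. The other complex I genes lower in IA were the accessory subunits Ndufb9 (-0.29 ± 0.08), Ndufa2 (-0.24 ± 0.08) and Ndufb11 (-0.22 ± 0.07). Ndufa4 of complex IV had 3338 ± 168 CPM in IA and 4271 ± 106 in IC (-0.34 ± 0.09), and Uqcrh, the hinge protein of complex III, was also lower (-0.23 ± 0.08).

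In the other direction, Uqcrb, a ubiquinone-binding subunit of complex III, had 1075, 1119, 1114 and 980.0 CPM in IA mice 1 to 4, against 885, 941, 882 and 867 in IC, without overlap and in the order IA over IB over IC in 4 of 4 mice (0.28 ± 0.07). Complex II had 2 of its 4 genes higher in IA, Sdhb (0.21 ± 0.07) and Sdhd (0.18 ± 0.05), while Sdha (0.07 ± 0.06) and Sdhc (-0.02 ± 0.05) were not called. Complex V had 0 of 15 nuclear genes called with edgeR (2 lower at an unadjusted p under 0.05, 3 lower with DESeq2). Without mouse 3 the calls of Uqcrb (adjusted p = 0.0632), Sdhb (0.0954), Sdhd (0.0793), Ndufb9 (0.0513), Ndufb11 (0.0731), Ndufa2 (0.107) and Uqcrh (0.175) were lost, which left 0 higher and 2 lower. Sdhb (0.0540) and Uqcrh (0.0559) were also lost without mouse 2, and Sdhd (0.0540) without mouse 1.

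Of the 9 assembly and associated genes, 4 were higher in IA than in IC and 2 lower (4 and 2 at an unadjusted p under 0.05, 1 and 2 with DESeq2), where 16.3% of all genes were called higher and 16.0% lower. Ndufaf4 had 84.6, 86.1, 93.6 and 86.8 CPM in IA mice 1 to 4, against 76.5, 71.9, 72.1 and 68.2 in IC, with no overlap (0.30 ± 0.06, adjusted p = 3.88e-05). Ndufaf7, a methyltransferase, was higher by 0.25 ± 0.08 and not called without mouse 3 (0.16, adjusted p = 0.220), without the mouse as a block (0.0823), with DESeq2 (0.0718) or with thinned cells (0.107). Ndufaf2 (-0.23 ± 0.05) and Ndufaf3 (-0.22 ± 0.05) were lower. Without the mouse as a block the nuclear subunit counts were 1 higher (Uqcrb) and 2 lower (Ndufa8 and Ndufa4).

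Between neighbouring subtypes few nuclear members differed. Against IB, IA was lower in 2 of 75 nuclear subunits, Ndufb9 (-0.23 ± 0.08) and Ndufa8 (-0.18 ± 0.06), against 8.19% of all genes, and higher in 0 (9 lower and 0 higher at an unadjusted p under 0.05, 10 and 1 with DESeq2). The call of Ndufb9 was lost without mouse 2 (adjusted p = 0.0733), mouse 3 (0.236) or mouse 4 (0.0583), and that of Ndufa8 without mouse 1 (0.0768), mouse 2 (0.103), mouse 3 (0.178) or mouse 4 (0.121). The assembly factor genes Ndufaf4 (0.20 ± 0.06) and Ndufaf6 (0.27 ± 0.08) were higher in IA than in IB. Ndufaf4 was not called without mouse 2 (adjusted p = 0.146) or mouse 3 (0.0501), nor Ndufaf6 without mouse 3 (0.189). Type IB was lower than IC in 1 nuclear subunit, Ndufa8 (-0.21 ± 0.06), against 5.47% of all genes, and that call was lost without mouse 2 (adjusted p = 0.148) or mouse 3 (0.241). Ndufaf2 was lower in IB than in IC (-0.18 ± 0.05), and not called without mouse 2 (adjusted p = 0.0512) or mouse 4 (0.0625). Atp5sl was higher in IB (0.18 ± 0.06), a call lost whichever mouse was left out (lowest adjusted p = 0.0795). Without the mouse as a block none of these calls between neighbours held.

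The ratio of mitochondrially encoded to nuclear UMIs within a complex put these patterns side by side. Over all complexes it was 1.12 ± 0.216 in type II and 1.48 ± 0.262 in putative neurons, against 1.34 ± 0.154 in IA, 1.10 ± 0.0599 in IB and 0.902 ± 0.0316 in IC. For complex I it was 0.702, 0.710, 0.797 and 0.430 in type II mice 1 to 4, 0.962, 0.767, 0.878 and 1.01 in IA, 0.798, 0.675, 0.704 and 0.719 in IB and 0.593, 0.534, 0.576 and 0.560 in IC. Type I kept the order IA over IB over IC in every mouse, and type II spanned from below IC to IB. Complex IV had the highest ratios, at 1.66 ± 0.253 in type II, 2.09 ± 0.363 in putative neurons, 1.82 ± 0.214 in IA, 1.51 ± 0.0810 in IB and 1.26 ± 0.0442 in IC. Complexes III and V lay between, with IA at 1.53 ± 0.169 and 1.17 ± 0.139.

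**Figure D4:**
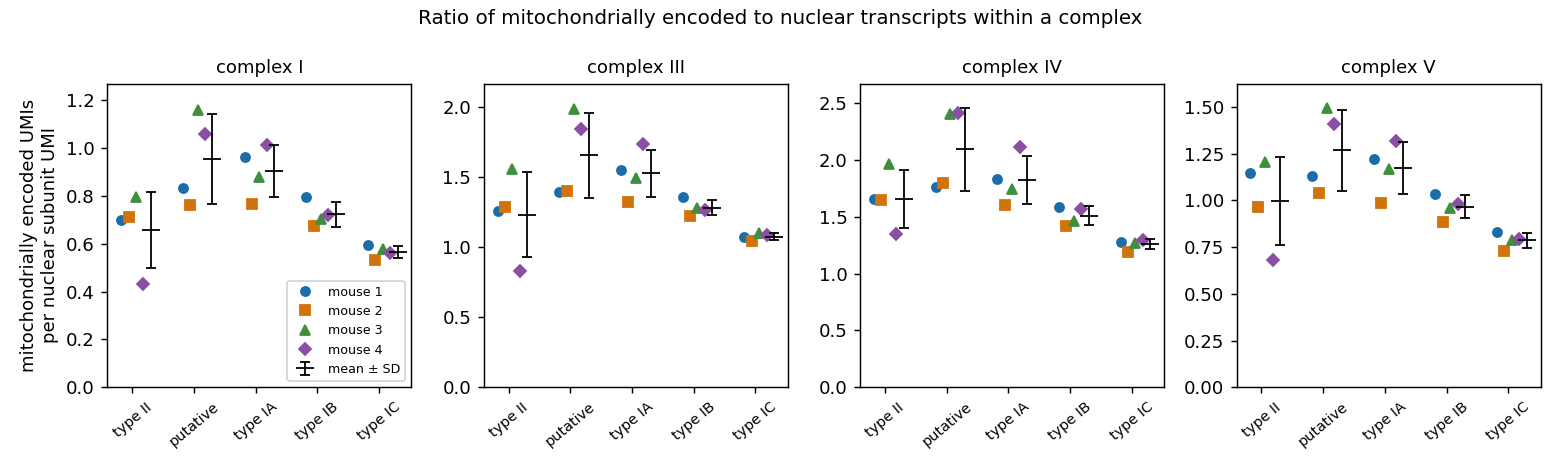
Mitochondrially encoded UMIs per nuclear subunit UMI (y axis) within complexes I, III, IV and V for type II, putative, type IA, type IB and type IC sums, 1 symbol per mouse with the mean ± SD. In each complex the ratio falls from type IA over IB to IC, as in complex I from 0.905 over 0.724 to 0.566, and type II and putative neurons vary most between mice.

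Cells annotated as putative neurons had lower nuclear subunit transcripts than type I. Of the 75 nuclear genes 69 were called lower and 0 higher, where 23.3% of all genes tested were called, 9.13% lower and 14.2% higher; an unadjusted p under 0.05 gave 72 and 0, and DESeq2 71 and 0. The median was -0.27, against -0.01 over all genes. The count was 42 without mouse 3, where the median was -0.26. The sums of glial, fibroblast and bone, supporting cell and endothelial markers given above were also higher in putative neurons than in type I and the neuron marker sum lower; beyond the glial marker Fabp7 their part in the result was not tested. Without cells of 3 or more Fabp7 UMIs 66 nuclear genes were called lower (median -0.24), and with every cell thinned to 4215 UMIs, which leaves out 46.9% of putative neurons, 55 (median -0.26). The values per mouse below come from 58 to 181 cells with a median of 3459 to 8923.5 UMIs, against 8628 to 19884 in type I cells.

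In complex I 35 of 36 nuclear genes were lower in putative neurons, with Ndufa11 (-0.36 ± 0.07) and Ndufab1, the acyl carrier protein (-0.35 ± 0.07), at the low end and Ndufb7 (-0.18 ± 0.06) and Ndufa8 (-0.17 ± 0.06) at the weak end. Complex II had 1 of 4 called, Sdhb (-0.20 ± 0.07). Complex III had 7 of 8, led by Uqcrq (-0.32 ± 0.08) and Uqcrh (-0.27 ± 0.07), with Uqcr10 (-0.23 ± 0.07) and the core protein gene Uqcrc2 (-0.19 ± 0.06) at the weak end. Complex IV had 11 of 12. Cox5a had 2527, 2393, 2215 and 1962 CPM in putative neurons of mice 1 to 4, below every type I value (-0.38 ± 0.09). Complex V had 15 of 15, from Atp5g1 (-0.33 ± 0.09) and Atp5j2 (-0.30 ± 0.08) to Atp5h (-0.18 ± 0.07) and Atp5g2 (-0.17 ± 0.06). Without mouse 2 and without mouse 3 the calls of Ndufb7 (adjusted p = 0.153 and 0.178), Ndufa8 (0.101 and 0.168), Sdhb (0.177 and 0.0861), Uqcr10 (0.108 and 0.132), Uqcrc2 (0.0909 and 0.147), Atp5h (0.113 and 0.208) and Atp5g2 (0.176 and 0.152) were lost. Uqcrh was lost without mouse 3 (0.0524), and Ndufa8 (0.111), Sdhb (0.0920), Uqcrc2 (0.0515) and Atp5h (0.114) also without mouse 4. With thinned cells Ndufb7 (adjusted p = 0.621), Ndufa8 (0.490), Sdhb (0.140) and Uqcrc2 (0.324) were lost.

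Of the 13 mitochondrial genes 3 were called higher in putative neurons and 0 lower (4 and 0 at an unadjusted p under 0.05, 3 and 0 with DESeq2), with a median of 0.14. Over all genes tested 14.2% were called higher. mt-Nd6, encoded on the other strand, had 55.7, 42.4, 52.8 and 91.0 CPM in putative neurons of mice 1 to 4, against 43.4, 36.4, 42.1 and 59.5 in IA, 41.5, 34.0, 37.3 and 59.0 in IB and 35.2, 30.6, 32.4 and 52.4 in IC (0.51 ± 0.10, adjusted p = 9.85e-05). It was higher than in type I within every mouse, and mouse 4 was the highest of each population. mt-Atp8 (0.27 ± 0.08) and mt-Nd3 (0.18 ± 0.07) were called, and neither without mouse 3 (adjusted p = 0.0651 for mt-Atp8 and 0.446 for mt-Nd3) or mouse 4 (0.0884 and 0.0673), nor with thinned cells (0.673 and 0.914). Without the mouse as a block 0 were called. Without cells over 15% mitochondrial UMIs 0 were called as well and the median was -0.13, with mt-Nd3 at -0.11 (adjusted p = 0.217).

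Of the isoforms, Cox7a1 (1.34 ± 0.14), Cox6b2 (0.99 ± 0.17) and Cox4i2 (0.95 ± 0.32) were higher and Cox8b lower (-0.43 ± 0.08) in putative neurons. Cox8b was lower than in type I in 3 of 4 mice. Without cells of 3 or more Fabp7 UMIs neither Cox6b2 (0.31, adjusted p = 0.310) nor Cox4i2 (0.58, adjusted p = 0.303) was called. Cox4i2 was also not called without mouse 2 (adjusted p = 0.103), without mouse 4 (0.354) or without the mouse as a block (0.0869). Among assembly and associated genes 5 of 9 were lower and 0 higher (5 and 0 at an unadjusted p under 0.05, 4 and 0 with DESeq2), where 9.13% of all genes were called lower, with Ndufaf6 (-0.49 ± 0.15), Atp5sl (-0.32 ± 0.10), Ndufaf3 (-0.28 ± 0.08) and Ndufaf2 (-0.24 ± 0.07). Ndufaf5 was also lower (-0.30 ± 0.11). Ndufaf6 was lost without mouse 3 (adjusted p = 0.0582) or mouse 4 (0.0584), Ndufaf2 without mouse 2 (0.0687) or mouse 3 (0.0709), and Atp5sl without mouse 2 (0.197), mouse 3 (0.0503) or mouse 4 (0.104). With thinned cells none of these 4 was called, with an adjusted p of 0.306 for Ndufaf6, 0.594 for Atp5sl, 0.207 for Ndufaf3 and 0.523 for Ndufaf2, and Atp5sl was also not called without cells of 3 or more Fabp7 UMIs (0.0514) or without the mouse as a block (0.0541).

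Promoter windows of the nuclear genes were searched for binding motifs known from this class of genes. Windows from RefSeq (GRCm38.p6) span 250 bases before to 50 after a start and were matched for 73 of the 92 nuclear members, 63 of them subunit genes. Each motif was searched on both strands and on its own, so that matches of different motifs may overlap. The NRF1 motif was in 17 of 63 subunit genes (27.0%), against 5.19% of all 27025 genes with a window searched. CCGGAAG, an ETS motif bound by the factor GABP, was in 25.4% of subunit genes and 9.93% of all. AAGATGGC (YY1) was in 14.3% and 3.19%, and AAGGTCA, a motif of estrogen-related receptors, in 12.7% and 5.38%. GGGCGG, the GC box, was in 39.7% and 38.2%, and TATAAA, the TATA box, in 7.94% and 15.7%. A match is a description of letters, and no binding was measured.

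The 250 bases before the start are printed for the graded isoform Cox8b, for its partner Cox8a, and for Sdhd and Ndufaf4, which were higher in IA than in IC. Capitals mark matches of the NRF1 and ETS letters. Sdhd (chr9:50603850-50604099, minus strand) holds both, with NRF1 from base 79 to 70 before the start, and Ndufaf4 (chr4:24897833-24898082, plus strand) holds NRF1 from base 113 to 104. In the 250 bases before its start Ndufa8, lower in IA than in IC, also has the NRF1 motif. Sdhb, higher in IA, has neither NRF1 nor ETS in its 250 bases. The longer window searched above, which also covers bases after the start, holds an ETS match for Sdhb. A link between motifs and differences was not tested. Cox8b (chr7:140900447-140900696, minus strand) and Cox8a (chr19:7217617-7217866, minus strand) have none of the 6 motifs in the printed bases. In the longer windows, on which the percentages above rest, Cox8b has a TATA box match and Cox8a an ETS match.
Cox8b promoter: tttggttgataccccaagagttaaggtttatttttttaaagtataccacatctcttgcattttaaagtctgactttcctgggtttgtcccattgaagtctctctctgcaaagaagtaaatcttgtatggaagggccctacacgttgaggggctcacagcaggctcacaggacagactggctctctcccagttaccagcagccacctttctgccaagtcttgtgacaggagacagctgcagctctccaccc
Cox8a promoter: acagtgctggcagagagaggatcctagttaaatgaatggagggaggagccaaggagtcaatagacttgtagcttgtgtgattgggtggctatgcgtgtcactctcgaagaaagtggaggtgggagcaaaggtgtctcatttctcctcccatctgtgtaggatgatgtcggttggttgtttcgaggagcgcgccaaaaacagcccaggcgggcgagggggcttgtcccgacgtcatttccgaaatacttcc
Sdhd promoter: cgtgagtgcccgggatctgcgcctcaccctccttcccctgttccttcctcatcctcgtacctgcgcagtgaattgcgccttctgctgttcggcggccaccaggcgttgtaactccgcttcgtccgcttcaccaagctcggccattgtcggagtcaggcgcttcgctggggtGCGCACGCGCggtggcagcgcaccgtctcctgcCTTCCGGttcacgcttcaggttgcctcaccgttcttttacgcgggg
Ndufaf4 promoter: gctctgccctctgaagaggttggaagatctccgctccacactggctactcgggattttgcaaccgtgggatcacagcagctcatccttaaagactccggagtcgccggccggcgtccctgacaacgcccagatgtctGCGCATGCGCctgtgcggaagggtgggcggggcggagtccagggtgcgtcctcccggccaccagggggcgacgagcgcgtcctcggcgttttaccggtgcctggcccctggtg

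The mitochondrial genes have no such windows. In the GRCm38 annotation mt-Nd1 lies at chrM:2751-3707, mt-Co3 at chrM:8607-9390, mt-Cytb at chrM:14145-15288 and mt-Nd6, on the minus strand, at chrM:13552-14070. Neighbours share bases: mt-Atp8 (chrM:7766-7969) and mt-Atp6 (chrM:7927-8607) share 43, mt-Nd4l and mt-Nd4 share 7, and mt-Nd5 and mt-Nd6 share 14 on opposite strands. Molecules of these pairs may have been split between the genes, so the separate levels of mt-Atp8, mt-Nd4l and mt-Nd6, all far below those of their neighbours, are uncertain.

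Genes around the chain were also called higher in IA than in IC, against 16.3% of all genes. Of 18 genes of the citric acid cycle and pyruvate dehydrogenase, 11 were higher in IA than in IC and 0 lower (12 and 0 at an unadjusted p under 0.05, 7 and 0 with DESeq2), with a median of 0.19. Pdha1, the catalytic subunit that commits pyruvate to oxidation, had 188 CPM in IA and 145 in IC (0.39 ± 0.06), and Idh3b, a subunit of isocitrate dehydrogenase, 381 and 295 (0.38 ± 0.06). Of 16 carrier and pore genes 7 were higher and 0 lower (7 and 1 at an unadjusted p under 0.05, 7 and 2 with DESeq2), led by the glutamate carrier Slc25a22 (0.56 ± 0.07) and the import motor gene Timm44 (0.42 ± 0.06). Of 9 regulators of mitochondrial biogenesis tested 4 were higher and 0 lower (4 and 0 at an unadjusted p under 0.05, 1 and 0 with DESeq2), among them the coactivator gene Pprc1 (0.48 ± 0.13) and Esrrg, estrogen-related receptor gamma (0.33 ± 0.06).

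Glycolysis genes called between IA and IC were lower in IA, against 16.0% of all genes called lower. Of 16 genes 4 were lower in IA than in IC and 0 higher (4 and 0 at an unadjusted p under 0.05, 5 and 0 with DESeq2), led by Aldoc, an aldolase (179.9 CPM in IA, 251 in IC, -0.46 ± 0.06), and Ldha, lactate dehydrogenase A (-0.45 ± 0.08). Against IB, 6 were lower in IA and 0 higher (7 and 0 at an unadjusted p under 0.05, 5 and 0 with DESeq2), where 8.19% of all genes were called lower, with the enolase gene Eno1 at 388 CPM in IA and 568 in IB (-0.53 ± 0.07) and the phosphofructokinase gene Pfkp at -0.35 ± 0.06. The citric acid cycle list had 3 of 18 genes higher in IA than in IB, where 7.4% of all genes were called higher, with Idh3g (0.21 ± 0.06) and the citrate synthase gene Cs (0.20 ± 0.06), and 3 higher in IB than in IC, against 6.37% of all genes, with Sucla2 (0.25 ± 0.06) and Pdha1 (0.22 ± 0.06).

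In type II most genes called in these lists were lower, against 11.5% of all genes. Of the citric acid cycle list 9 of 18 genes were lower and 0 higher (13 and 0 at an unadjusted p under 0.05, 9 and 0 with DESeq2), with Sucla2, a succinate-CoA ligase subunit, at 154 CPM in type II and 281 in type I (-0.80 ± 0.12) and Pdhb at -0.73 ± 0.12. Mpc2, a subunit of the pyruvate carrier, had 327 CPM in type II and 614 in type I (-0.90 ± 0.10), 1 of 6 carrier genes lower. Of regulators, 3 were lower and 1 higher, with Esrrg at 45.0 CPM in type II and 147 in type I (-1.39 ± 0.19) and Ppargc1a, the coactivator PGC-1alpha, at 101 and 203 (-0.84 ± 0.13). Glycolysis had 8 genes lower and 2 higher. Pfkm (-0.87 ± 0.13) and Eno2 (-0.82 ± 0.10) were lower, and Ldha was higher in type II (1.22 ± 0.19) and in putative neurons (115 CPM against 44.7 in type I, 1.36 ± 0.10). The glial marker sum was also higher in these populations, and its part in the Ldha difference was not tested.

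Within a population, cells with a larger mitochondrial share had a lower nuclear subunit share in type I, and in type II a higher one when grouped as below. The cells of each mouse were put in order of their mitochondrial share and divided into tertiles, groups of nearly equal size. The median mitochondrial share in the lowest tertile was 6.74% in IA, 6.59% in IB and 5.62% in IC (means over 4 mice). In the highest tertile it was 19.6, 14.6 and 11.4%, so the populations differed most there. In type IA nuclear subunits took 9.44% ± 0.247 of nuclear UMIs in the lowest tertile, 9.10% ± 0.402 in the middle and 6.97% ± 0.787 in the highest (SD, n = 4 mice). Type IB had 9.57%, 9.47% and 8.09%, and type IC 9.25%, 9.29% and 8.05%. In type II the shares were 5.24% ± 0.379, 6.02% ± 1.01 and 7.46% ± 1.26 from the lowest to the highest tertile, an increase from the lowest to the highest in 4 of 4 mice. Each of these tertiles held only 5 to 12 cells. The highest stood at 9.33% in mouse 1 and at 6.97, 6.91 and 6.61% in mice 2 to 4. In mouse 3 the middle tertile (5.69%) was below the lowest (5.78%). Depth moved with this in type I: IA cells of the highest tertile had a median of 6886 UMIs and those of the lowest 15982. In type II the medians of mice 1 to 4 were 25093, 6402, 10045 and 4830 UMIs in the highest tertile and 15899, 9878, 13111.5 and 10245 in the lowest, so that the highest tertile was shallower in 3 of 4 mice and deeper in mouse 1.

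Spearman's rho was taken across cells of a mouse between the mitochondrial share and the nuclear subunit share of nuclear UMIs. It was -0.73 to -0.54 in IA, -0.55 to -0.45 in IB and -0.46 to -0.44 in IC. In type II, where a mouse has 15 to 34 cells, it was 0.62, 0.05, 0.26 and -0.05 in mice 1 to 4. For putative neurons it was -0.19, -0.22, -0.33 and 0.04, weaker than in type I. With every cell thinned to 4215 UMIs it was -0.64 to -0.42 in IA, -0.51 to -0.37 in IB, -0.41 to -0.31 in IC and 0.08 to 0.62 in type II. Thinned putative neurons had -0.55 to -0.28. These are descriptions over cells that share a library.

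**Figure D5:**
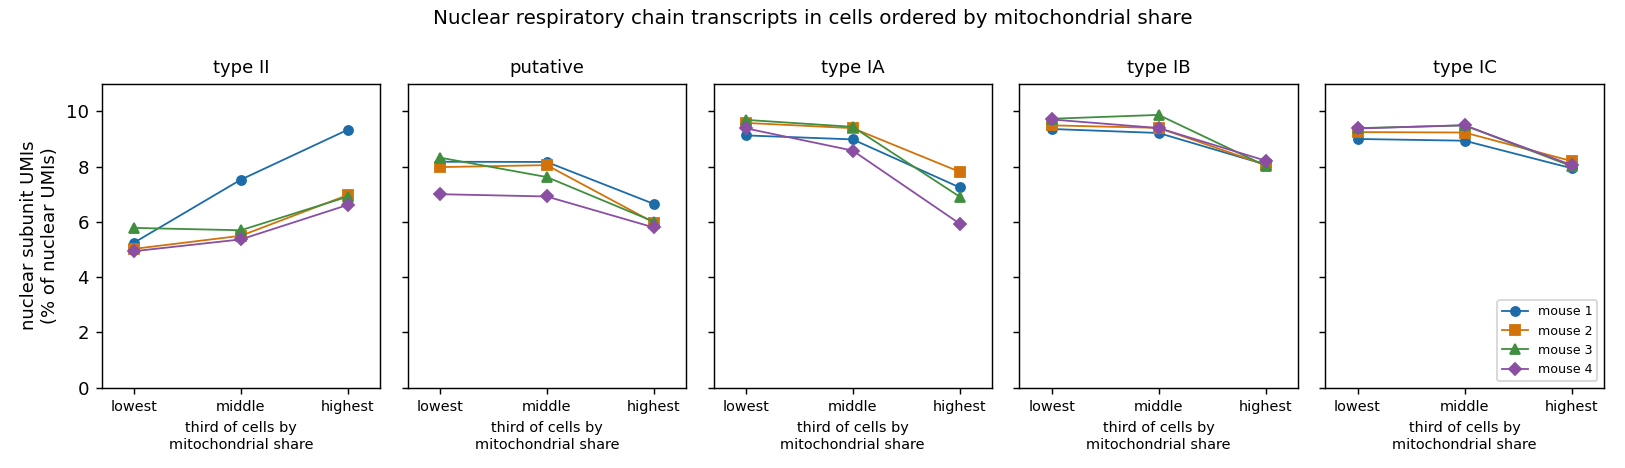
Nuclear subunit UMIs as a percentage of nuclear UMIs (y axis) in the lowest, middle and highest tertile of cells by mitochondrial share (x axis), in type II, putative, type IA, type IB and type IC cells, with a line per mouse. Lines fall from the lowest to the highest tertile in type I and putative neurons, in IA to 6.97% on average. In type II, with 5 to 12 cells per tertile, they rise from 5.24% in the lowest to 7.46% in the highest on average.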

How the data were processed

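Single-cell RNA of 4 mice was measured by droplet capture with unique molecular identifiers. The authors deposited counts of UMIs, not normalised, for each cell. Per the submitters' processing notes, Cell Ranger 2.0.1, Seurat 1.4 and the mm10 build were used; no source used here gives the way population labels were assigned, and they were taken from the authors' deposited annotation. Counts were summed per mouse and population (20 sums, at least 10 cells each). Sums were tested with edgeR 4.0.16 in R 4.3.3 (quasi-likelihood test, TMM scaling, 13005 genes after its low-count filter, Benjamini-Hochberg adjusted p under 0.05), with population and mouse as terms. The mouse is a block because the 5 populations of a mouse come from the same animal and library. Type I is the mean of IA, IB and IC. The contrasts share sums. With the mouse as a block, p-values measure how far differences between populations vary over the 4 mice, not the spread between mice. That variation was estimated over all 20 sums and partly shared across genes. Alternatives used DESeq2 1.42.0, other scalings, no filter, no block, each mouse left out, cells thinned to 4215 UMIs and cells removed by Fabp7, Prph or mitochondrial share. The script was tested on simulated data. Doublets were not called; the deposited cells were used as given. Gene length was not corrected, and paralogues, pseudogenes and overlapping mitochondrial genes may share molecules. Depth limits type II most. The text names all mitochondrial and complex II members, isoform families, the 2 called members with the highest and the 2 with the lowest log2 difference per complex and comparison, and up to 2 genes per pathway list. Genes named beyond this rule, such as Ndufaf5 and uncalled subunits, were chosen after their values were seen. The members and lists were chosen with earlier results of these data known. Summaries used Python 3.11.15, pandas 2.3.3 and matplotlib 3.10.9.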

Additional observations from a re-analysis of the deposited data

Results flagged for a closer look

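The mitochondrially encoded complex V genes, mt-Atp6 and mt-Atp8, took 1.87% of UMIs in type IA sums of mouse 2, against 2.22%, 2.19% and 2.24% in mice 1, 3 and 4. The gap to the nearest mouse was large for the range of the group. It was the 1 value to stand apart among 80 groups of 4 mice examined, and chance alone marks about 5% of groups in this way.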

How the results depend on the processing

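The lower nuclear subunit counts in type II (60 to 71 of 75) and the higher mitochondrial counts in type IA over IC (9 to 13 of 13, the fewest without the mouse block) kept their direction under every alternative run; counts below are higher or lower calls in the named comparison. Without the mouse as a replicate block, type IA minus IC had 1 nuclear higher and 2 lower, IA minus IB 0 nuclear lower and 0 mitochondrial higher, IB minus IC 0 nuclear lower and 0 mitochondrial higher, and putative minus type I 0 mitochondrial higher. Over fits that each left out 1 mouse, type IA minus IC had 0 to 6 nuclear higher and 2 to 8 lower and a nuclear median of -0.038 to 0.014, IA minus IB 0 to 2 nuclear lower and 0 to 2 mitochondrial higher, IB minus IC 0 to 1 nuclear higher, 0 to 1 lower and 3 to 7 mitochondrial higher, and putative neurons 42 to 71 nuclear lower and 1 to 4 mitochondrial higher. DESeq2 size factors in edgeR gave 1 nuclear higher in type II and 11 lower in IA minus IC; library sizes alone gave 1, 13 and, in IA minus IB, 4 lower; nuclear library sizes gave 1 lower in IA minus IB. The DESeq2 test gave 2 nuclear higher in type II, 18 lower in IA minus IC, 1 higher, 10 lower and 0 mitochondrial higher in IA minus IB, and 1 nuclear and 3 mitochondrial higher in IB minus IC. With no low count filter, IA minus IB had 1 nuclear lower and 4 mitochondrial higher. Without cells of 3 or more Fabp7 UMIs, 5 mitochondrial genes were lower in type II, 13 nuclear lower in IA minus IC, 4 mitochondrial higher in IA minus IB and 5 in putative neurons. Thinned cells gave 5 nuclear higher and 12 lower in IA minus IC, 6 lower and 5 mitochondrial higher in IA minus IB, 2 nuclear and 10 mitochondrial higher in IB minus IC, and 1 mitochondrial higher in putative neurons. Without cells over 15% mitochondrial, chosen after seeing the data, IA minus IC had 6 nuclear higher and a nuclear median of 0.027, IA minus IB 0 nuclear lower and 0 mitochondrial higher, IB minus IC 1 nuclear higher, and putative neurons 0 mitochondrial higher, a median of -0.13 and mt-Nd3 at -0.11. With nuclear UMIs as the total, nuclear subunits took 7.51% in putative neurons, 8.86% in IA, 9.22% in IB and 9.01% in IC, and mitochondrial genes, as a percentage, 11.8 in IA, 10.2 in IB and 8.13 in IC; thinned cells gave 7.57%, 8.06% and 8.06% nuclear and 11.7%, 10.1% and 8.19% mitochondrial in IA, IB and IC. The causes were not tested. Depth limits type II, whose sums hold 15 to 34 cells.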

Other observations

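Some genes that build the chain without being part of it were lower in type II too. Of 35 assembly factors outside the rule 12 were lower and 0 higher (14 and 0 at an unadjusted p under 0.05, 10 and 0 with DESeq2), where 11.5% of all genes were called lower. Bcs1l, which inserts the Rieske protein into complex III, had 10.4 CPM in type II and 25.2 in type I (-1.23 ± 0.33), and Sco2, a copper chaperone of complex IV, 25.8 and 40.9 (-1.03 ± 0.27). Between IA and IC, 3 were higher and 5 lower (7 and 9 at an unadjusted p under 0.05, 3 and 4 with DESeq2), neither share above the 16.3% and 16.0% of all genes, with Atpaf1, an assembly factor of ATP synthase, at 0.45 ± 0.05 and Uqcc2, of complex III, at -0.45 ± 0.07.

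Genes that express the mitochondrial genome were higher in IA than in IC for 5 of 19 tested and lower for 0 (5 and 0 at an unadjusted p under 0.05, 4 and 0 with DESeq2), where 16.3% of all genes were called higher. Lrpprc, which stabilises mitochondrial messengers, had 67.4 CPM in IA and 50.1 in IC (0.45 ± 0.06), and Fastkd1 differed by 0.61 ± 0.12. In type II, Lrpprc was lower (-0.75 ± 0.20), 1 of 2 of the 19 genes called lower (6 at an unadjusted p under 0.05, 2 with DESeq2), a share near the 11.5% of all genes.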
